A study of Mus musculus with 32 samples.

Results

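Immediate early genes are transcribed soon after a cell is stimulated, without new protein having to be made first. The 10 members described here are Fos, Fosb, Jun, Junb, Jund, Egr1, Egr2, Egr3, Atf3 and Ier2. They were chosen by name, and all 10 have values among the 18588 genes of a log2 signal table of mouse microglia. The microglia came from female rTg4510 mice, with genotype given as Transgenic, and from female WT littermates with strain given as an F1 cross with FVB, at 2, 4, 6 and 8 months of age. rTg4510 mice carry a human tau gene with the P301L mutation behind a tetracycline-responsive element, together with a transactivator driven by the CaMKIIα promoter, while the WT littermates carry neither transgene. Forebrains of several animals were pooled for each library, dissociated mechanically and enzymatically, and CD11b-positive cells were taken with magnetic beads. Of 32 libraries 28 were kept, 4 per genotype at 2 and at 6 months and 3 per genotype at 4 and at 8 months. The driver is active in forebrain neurons, so the sequenced cells are not those in which the transgene is made, and males, other brain regions and single animals were not measured.

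Fos, Fosb, Jun, Junb and Jund encode proteins that pair with each other into the transcription factor AP-1. Egr1, Egr2 and Egr3 encode zinc finger transcription factors that bind GC-rich sites, and Atf3 encodes a leucine zipper factor made under stress. Ier2 encodes a nuclear protein that is made early after growth stimuli. All of them also respond to the dissociation of a tissue into single cells, and in these libraries such a response and the state of the microglia in the brain cannot be told apart.

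The microglia label was compared with marker genes. All 10 microglia markers on the list have values, and the most abundant of them, Cx3cr1, has a mean log2 signal of 13.57. The sums of the microglia markers run from 14.47 to 15.26 over the 28 libraries, and each sum for neurons, astrocytes, oligodendrocytes, endothelial cells, neutrophils, border macrophages with monocytes, and lymphocytes lies lower in every library. The authors give an approximate number of reads that is the same for every sample, and read totals of single libraries were not analysed here. In bulk samples, fewer cells of a type and less RNA per cell cannot be told apart.

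Microglia of rTg4510 mice carried more Egr2 and Egr3 transcript than WT microglia at each of the 4 ages. Atf3 was also higher at 6 months. The remaining 7 members, among them all 5 AP-1 subunits, did not pass the test as higher or lower at any age, which does not show that their levels are equal. At 2 months 2 of the 10 members rose, against 1.58% of all genes. At 4 months 2 of 10 rose while 9.47% of all genes did. The count at 6 months was 3 of 10, beside 11.3% of all genes. For 8 months it was 2 of 10, beside 10.5% of all genes. At 4 and 8 months the count is about 1 gene above the share of all genes, and whether the members exceed that share was not tested at any age. A call needs an adjusted p (FDR) under 0.05 over all genes and more than 1.5 fold in a limma linear model.

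No member fell by that test at any age, while 0.403%, 4.33%, 8.54% and 5.37% of all genes fell at 2, 4, 6 and 8 months. At unadjusted p under 0.05, without regard to direction, 3069, 6246, 7990 and 6580 of all genes differed. With quantile normalization Jund passed as lower at 4, 6 and 8 months, and under the other settings without a left-out library no member passed as lower. The median log2 fold change of the 10 members was 0.32, 0.04, 0.40 and 0.31 at 2, 4, 6 and 8 months, beside medians of 0.01, -0.04, -0.04 and -0.01 for all genes. Several of the single fold changes behind these medians turn negative with quantile normalization. Most members are then below 0 at 4, 6 and 8 months, so the members' medians at these ages turn negative as well.

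**Figure D1:**
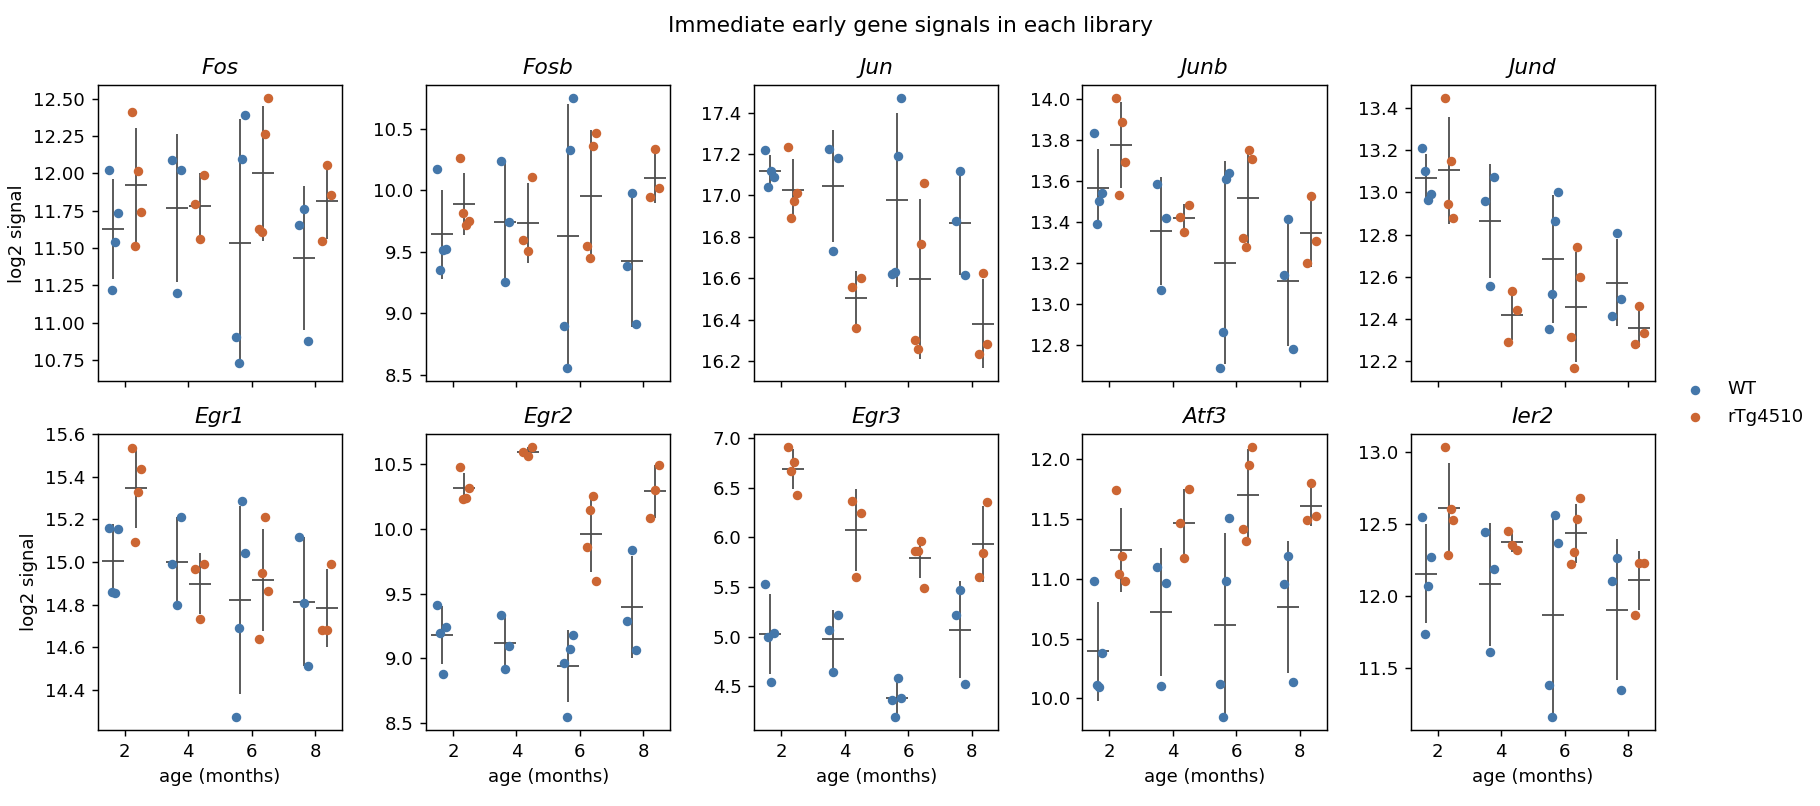
Log2 signal of the 10 members in each of the 28 kept libraries by age, WT in blue and rTg4510 in orange, with group means and standard deviations as bars.

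Egr2 encodes a zinc finger transcription factor, and its transcript was higher in rTg4510 microglia at every age. At 2 months the rTg4510 libraries read 10.48, 10.23, 10.24 and 10.32 and the WT libraries 9.41, 9.19, 8.88 and 9.24. At 4 months they read 10.60, 10.56 and 10.63 in rTg4510 and 9.34, 8.91 and 9.10 in WT. Every rTg4510 library lies above every WT library at both of these ages. The 6 month values are 9.86, 10.15, 10.26 and 9.60 in rTg4510 and 8.96, 8.55, 9.07 and 9.18 in WT. The 8 month values are 10.08, 10.30 and 10.49 in rTg4510 and 9.29, 9.84 and 9.07 in WT. Again the genotypes do not overlap, and at 8 months the second WT library comes closest to the rTg4510 group. The log2 fold change was 1.14 at 2 months (SE 0.17, 2.2 fold, FDR 0.000255) and 1.48 at 4 months (SE 0.20, 2.79 fold, FDR 7.2e-06). It was 1.02 at 6 months (SE 0.17, 2.03 fold, FDR 7.09e-05) and 0.90 at 8 months (SE 0.20, 1.86 fold, FDR 0.00164). These calls hold without any single library and under both other normalizations. Replicate 3 of rTg4510 at 4 months, which was not kept, reads 8.35 and lies below every kept library of either genotype. The 2 month call was lost with all 32 libraries (1.14, FDR 0.0902), and the 8 month call was lost with only the 6 libraries of that age in the model (0.90, FDR 0.116).

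Egr3, which encodes a related zinc finger factor, was likewise higher in rTg4510 microglia at all 4 ages, from a lower place in the table. Its mean signal is above that of 48.0% of genes, while each of the other 9 members lies above 95.4% of genes or more. At 2 months the values are 6.91, 6.66, 6.76 and 6.42 in rTg4510 and 5.53, 4.996, 4.54 and 5.04 in WT. At 4 months they are 6.36, 5.60 and 6.25 in rTg4510 and 5.06, 4.65 and 5.21 in WT. The groups are apart at both ages, with the second rTg4510 library at 4 months nearest to WT. At 6 months rTg4510 libraries have 5.87, 5.86, 5.96 and 5.49 and WT libraries 4.37, 4.19, 4.59 and 4.38. At 8 months rTg4510 libraries have 5.60, 5.85 and 6.35 and WT libraries 5.22, 5.47 and 4.53. Groups stay apart here too, but at 8 months the lowest rTg4510 library and the second WT library are close. The log2 fold change was 1.66 at 2 months (SE 0.23, 3.16 fold, FDR 0.000122) and 1.10 at 4 months (SE 0.26, 2.14 fold, FDR 0.00385). For 6 months it was 1.41 (SE 0.23, 2.66 fold, FDR 4.86e-05), and for 8 months 0.86 (SE 0.26, 1.82 fold, FDR 0.0195). The 8 month call was lost without rTg4510 replicate 3 (0.65, FDR 0.111) and without WT replicate 3 (0.59, FDR 0.134). It was lost as well with all 32 libraries (0.83, FDR 0.0597) and with only the libraries of that age in the model (0.86, FDR 0.223). The call at 4 months was lost under the same settings (0.69, FDR 0.109, and 1.10, FDR 0.101). No single library ended the calls at 2, 4 and 6 months.

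Egr1 encodes the third zinc finger factor of the family among the members, and it did not pass the test at any age. Its log2 fold changes were 0.34, -0.10, 0.092 and -0.029 at 2, 4, 6 and 8 months, with FDR between 0.374 and 0.941, and the 6 month value turns to -0.30 with quantile normalization. WT and rTg4510 libraries overlap at all 4 ages.

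Atf3 was higher in rTg4510 microglia at 6 months by the test, and its fold change had the same sign at the other ages. Its protein is a leucine zipper factor that can pair with AP-1 proteins. At 2 months rTg4510 libraries read 11.75, 11.04, 11.19 and 10.98 and WT libraries 10.98, 10.11, 10.10 and 10.38. At 4 months the values were 11.47, 11.18 and 11.75 in rTg4510 and 11.10, 10.11 and 10.96 in WT. At 2 months the lowest rTg4510 library meets the highest WT library, and at 4 months the groups are apart by a small gap. The 6 month libraries read 11.42, 11.32, 11.95 and 12.10 in rTg4510 and 10.12, 9.85, 10.99 and 11.51 in WT. The 8 month libraries read 11.50, 11.81 and 11.53 in rTg4510 and 10.95, 11.19 and 10.14 in WT. WT replicate 4 lies inside the rTg4510 range at 6 months, and at 8 months the groups do not overlap. The log2 fold change at 6 months was 1.08 (SE 0.34, 2.12 fold, FDR 0.0161). It was 0.85 at 2 months (FDR 0.179), 0.74 at 4 months (FDR 0.188) and 0.85 at 8 months (FDR 0.122), all short of the test. The 6 month call was lost without rTg4510 replicate 4 (0.95, FDR 0.0539), without WT replicate 1 (0.92, FDR 0.0601) and without WT replicate 2 (0.83, FDR 0.0718). With quantile normalization the 6 month value was 0.61 (FDR 0.179), and with only the libraries of that age in the model it was 1.08 (FDR 0.116). With all 32 libraries Atf3 passed at 4 months (1.01, FDR 0.026).

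The labels give no meaning for the replicate numbers. At 6 and 8 months same-numbered libraries of the 2 genotypes deviated alike over all genes (r 0.131 to 0.291). The pairing is therefore inferred from these same values. At 8 months the mean of the members does not follow it throughout. Its deviation in WT and rTg4510 was 0.080 and -0.18 in replicate 1, 0.33 and 0.11 in replicate 2, and -0.41 and 0.066 in replicate 3. With replicate number as a block, Atf3 at 8 months passed (0.85, FDR 0.0124), and the members that rose there were 3 of 10 against 10.5% of all genes. The block changed no other call of a member at these 2 ages.

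Fos and Fosb, which encode AP-1 subunits that need a partner of the Jun family, did not pass the test at any age. Fos differed by 0.29, 0.012, 0.47 and 0.39 at 2, 4, 6 and 8 months (FDR 0.312 to 0.989), and these values turn to -0.44, -0.084 and -0.11 at the last 3 ages with quantile normalization. Fosb differed by 0.24, -0.0093, 0.32 and 0.68 (FDR 0.311 to 0.993). WT and rTg4510 libraries of both genes overlap at every age.

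Jun, Junb and Jund encode the partners of the Fos proteins, and none of them passed the test between genotypes. At 4 months Jun read 16.56, 16.36 and 16.60 in rTg4510 and 17.22, 16.73 and 17.18 in WT. Jund at 4 months read 12.29, 12.53 and 12.44 in rTg4510 and 12.96, 12.56 and 13.07 in WT. For both genes every rTg4510 library lies below every WT library at this age. The log2 difference for Jun was -0.54 (FDR 0.0869). That for Jund was -0.44 (FDR 0.0882). Without WT replicate 2 of 4 months both passed, Jun with -0.70 (FDR 0.0472) and Jund with -0.59 (FDR 0.0345). At 2, 6 and 8 months Jun differed by -0.09, -0.38 and -0.49. Jund differed by 0.036, -0.23 and -0.21 at these ages, and the 2 month value turns to -0.070 with quantile normalization and to -0.011 when centred on genes above the median. In every same-numbered pair of libraries at 6 and at 8 months, Jun and Jund were both lower in rTg4510. With the replicate block no member passed as lower at these 2 ages. With quantile normalization Jund passed at 4 months (-0.92, FDR 2.09e-05), at 6 months (-0.85, FDR 4.98e-06) and at 8 months (-0.77, FDR 0.000132). Junb differed by 0.21, 0.06, 0.31 and 0.23 (FDR 0.238 to 0.888), and quantile normalization turns the last 3 of these to -0.24, -0.15 and -0.18.

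Ier2, which encodes a nuclear regulator, did not pass at any age. Its differences were 0.46, 0.29, 0.57 and 0.20 (FDR 0.131 to 0.703), and they turn to -0.21, -0.0081 and -0.33 at 4, 6 and 8 months with quantile normalization. Without WT replicate 3 of 6 months Ier2 passed there (0.80, FDR 0.0346).

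Library ranges, read without a model, set Egr2 and Egr3 apart as the test does, while for Atf3, Jun and Jund ranges and test differ. At 2 months Egr2 and Egr3, 2 of 10, had every rTg4510 library above every WT library, which 7.49% of all genes have. At 4 months 3 of 10 did so, Atf3 in addition, beside 19.1% of all genes, and 2 of 10, Jun and Jund, lay below, beside 17.5% of all genes. At 6 months, where Atf3 passed the test but its ranges overlap, it was 2 of 10 above, beside 18.2% of all genes. The 8 month count was 3 of 10 above, beside 21.2% of all genes. Below WT lay 0 of 10 at 2, 6 and 8 months, beside 3.51%, 14.6% and 15.5% of all genes. At 4, 6 and 8 months the upward counts are within about 1 gene of the share of all genes, and in either direction 2 of 10 at 6 months and 3 of 10 at 8 months are under the 32.8% and 36.7% of all genes. At 2 months the 2 of 10 are about 1 gene above the 11% of all genes apart in either direction. The 3 above and 2 below at 4 months are together about 1 gene above the 36.6% of all genes. Whether the members exceed these shares was not tested. Groups of 3 separate by chance more readily than groups of 4.

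**Figure D2:**
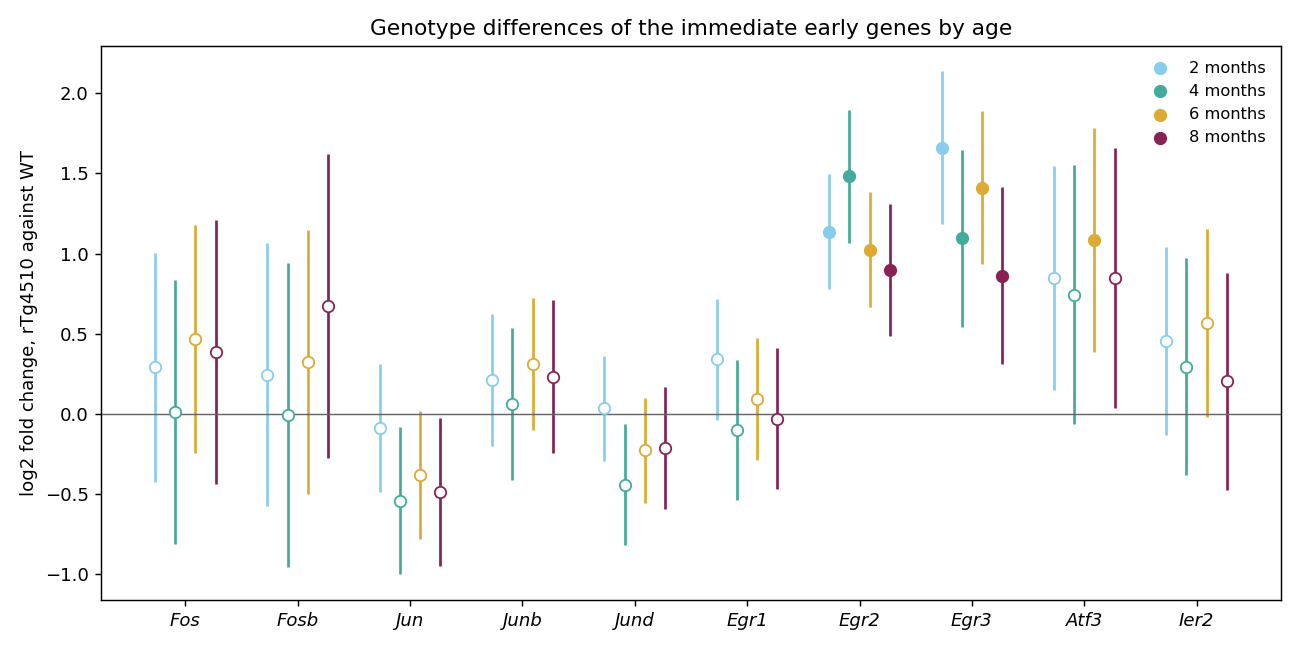
Log2 fold change of rTg4510 over WT with 95% intervals for the 10 members by age, filled where FDR is under 0.05 and the change is more than 1.5 fold. With quantile normalization several values of Fos, Junb, Jund, Egr1 and Ier2 change sign.

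Averaged over the 4 ages, rTg4510 microglia had more Egr2, Egr3 and Atf3 transcript. Jun and Jund were slightly lower and Ier2 slightly higher, each by less than 1.5 fold. The 3 members that rose are 3 of 10, against 9.51% of all genes. By FDR alone 6 of 10 members differed, against 46.7% of all genes, so that count is near the share of all genes. Egr2 rose by 1.14 (95% interval 0.94 to 1.33, 2.2 fold, FDR 1.57e-09). The rise of Egr3 was 1.26 (0.999 to 1.52, 2.39 fold, FDR 2.87e-08). For Atf3 it was 0.88 (0.50 to 1.26, 1.84 fold, FDR 0.000421), and 0.51 with quantile normalization (FDR 0.0256), under the fold threshold. Jun differed by -0.37 (FDR 0.0053), and Jund by -0.21 (FDR 0.0463). Ier2 differed by 0.38 (FDR 0.0464), which turns to -0.092 with quantile normalization. With that normalization Jund reached -0.65 (FDR 1.8e-08). Fos at 0.29 (FDR 0.208) and Junb at 0.20 (FDR 0.123) did not pass, and with quantile normalization they turn to -0.14 and -0.13. Fosb at 0.31 (FDR 0.245) did not pass. Egr1 at 0.08 (FDR 0.553) turns to -0.22 with quantile normalization. The members' median was 0.30, beside -0.03 for all genes. With quantile normalization Fos, Jun, Junb, Jund, Egr1 and Ier2 are all below 0, so the members' median turns negative.

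The genotype difference of a member was not shown to differ between ages. Egr3 had its largest difference at 2 months and its smallest at 8 months, and Egr2 its largest at 4 months, but these steps stayed within what the test allows. Atf3, called at 6 months and not at the other ages, was not shown to differ there. By limma 0 of 10 members passed for 4 against 2 months, beside 4.66% of all genes. For 6 against 4 months 0 of 10 passed, beside 0.156% of all genes. For 8 against 6 months 0 of 10 passed, beside 0% of all genes. For 8 against 2 months 0 of 10 passed, beside 6.7% of all genes. With 10 members, 0 is not far from any of these shares. At unadjusted p under 0.05 there were 3637, 1514, 841 and 3924 of all genes. Among the members 1 had such a p, Egr3 for 8 against 2 months (-0.80, SE 0.35, p 0.0332, FDR 0.183). With quantile normalization 1 member, Jund, passed for 4 against 2 months and for 8 against 2 months, and the other settings run for these comparisons gave 0.

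No member passed the test between ages in WT microglia. In WT mice 0 of 10 members passed from 2 to 4 months, beside 0.0484% of all genes. From 4 to 6 months it was 0 of 10, beside 0.00538% of all genes. From 6 to 8 months it was 0 of 10, beside 0% of all genes. From 2 to 8 months it was 0 of 10, beside 1.27% of all genes. So few genes of any kind passed that a count of 0 among 10 says little. Limma gave 1902, 1608, 1818 and 3561 of all genes at unadjusted p under 0.05 in these comparisons, and 0 members passed with all 32 libraries, moderated variance, either other normalization or genes above the median signal alone. Egr3 differed by -0.59 from 4 to 6 months (p 0.0266) and by 0.69 from 6 to 8 months (p 0.0115). Egr2 differed by 0.46 from 6 to 8 months (p 0.0231). Jund differed by -0.49 from 2 to 8 months (p 0.0085, FDR 0.106), and Junb by -0.45 (p 0.0461).

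In rTg4510 microglia, Jund fell between 2 and 4 months, and by 8 months Jun, Jund and Egr3 had all fallen from their 2 month level. Except for Jund with quantile normalization, no fall was shown to differ from the change in WT. By limma the genotype difference changed from 2 to 8 months by -0.25 for Jund (FDR 0.63), -0.40 for Jun (FDR 0.492) and -0.80 for Egr3 (FDR 0.183). Jund in WT differed by -0.49 over the same ages (FDR 0.106). In rTg4510 no member rose from 2 to 4 or from 2 to 8 months, beside 4.03% and 5.72% of all genes, and 0 of 10 is near these shares. From 2 to 4 months 1 of 10 members fell, beside 2.36% of all genes. From 4 to 6 months 0 of 10 passed, beside 0.818% of all genes. From 6 to 8 months 0 of 10 passed, beside 0.00538% of all genes. From 2 to 8 months 3 of 10 fell, a larger share than the 4.78% of all genes. With a library left out 1 to 3 members were called there, and with all 32 libraries 0. Whether the members exceed the share of all genes was not tested. For the 2 middle steps limma gave 2605 and 2685 of all genes at unadjusted p under 0.05, and the other settings run for these steps gave 0 members. Egr2 was nearest to a call there, from 4 to 6 months (-0.63, p 0.00279, FDR 0.0902).

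Jund in rTg4510 read 13.44, 12.94, 13.15 and 12.88 at 2 months and 12.28, 12.46 and 12.33 at 8 months. Every 8 month library lies below every 2 month library, and the 4 month libraries do too. It fell by 0.68 from 2 to 4 months (SE 0.17, FDR 0.00828) and by 0.74 from 2 to 8 months (SE 0.17, FDR 0.00278). Without rTg4510 replicate 1 of 2 months the fall to 4 months was 0.57 (FDR 0.0326), under the fold threshold. With all 32 libraries that difference was 0.20, with the other sign, and the difference from 2 to 8 months was -0.47 (FDR 0.706).

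Jun in rTg4510 read 17.23, 16.89, 16.97 and 17.01 at 2 months and 16.23, 16.63 and 16.28 at 8 months. The 8 month libraries are all lower, with the second nearest to the 2 month group. Jun fell by 0.65 (SE 0.21, FDR 0.0289). The call was lost without rTg4510 replicate 1 of 2 months (-0.58, FDR 0.0764), replicate 4 of 2 months (-0.65, FDR 0.0511), replicate 1 of 8 months (-0.57, FDR 0.112) and replicate 3 of 8 months (-0.60, FDR 0.091). With quantile normalization it was -0.20 (FDR 0.381) and with all 32 libraries -0.57 (FDR 0.0817), neither of them called. Egr3, with the values given above, fell by 0.76 from 2 to 8 months (SE 0.25, FDR 0.033), and its 8 month libraries all lie below its 2 month libraries. That call was lost without rTg4510 replicates 1, 2 or 3 of 2 months (-0.68, FDR 0.082; -0.76, FDR 0.0572; -0.73, FDR 0.0644). It was also lost without replicates 1 or 2 of 8 months (-0.59, FDR 0.167, and -0.71, FDR 0.105), and with all 32 libraries (-0.63, FDR 0.218). Egr1 differed by -0.56 (FDR 0.0454), which is 1.48 fold and under the threshold. With quantile normalization 4 members passed from 2 to 8 months, Junb, Jund, Egr1 and Egr3, and with all 32 libraries 2 passed from 2 to 4 months, Egr1 and Egr3.

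The order of the group means shows how far genotype and age each reach. Egr2 runs from rTg4510 at 4 months (10.60) over rTg4510 at 2, 8 and 6 months (10.32, 10.29 and 9.97) to WT at 8, 2, 4 and 6 months (9.40, 9.18, 9.12 and 8.94). Within rTg4510 the 2 and 8 month means lie closer than the spread of libraries, and so do all neighbouring WT means. Egr3 runs from rTg4510 at 2, 4, 8 and 6 months (6.69, 6.07, 5.93 and 5.79) to WT at 8, 2, 4 and 6 months (5.07, 5.03, 4.98 and 4.38). The steps beyond its spread are the first, the one between the genotypes and the last. Atf3 runs from rTg4510 at 6, 8, 4 and 2 months (11.70, 11.61, 11.47 and 11.24) to WT at 8, 4, 6 and 2 months (10.76, 10.72, 10.61 and 10.39). Its single step beyond the spread is that between the genotypes. For these 3 genes, and by small steps for Fos, all 4 rTg4510 means lie above all 4 WT means, though the differences of Fos at 4, 6 and 8 months turn negative with quantile normalization. Jun is highest in WT at 2 months (17.12) and lowest in rTg4510 at 8 months (16.38), with 1 neighbouring step, WT at 8 months to rTg4510 at 6 months, beyond the spread. Egr1 has 1 such step, from rTg4510 at 2 months (15.35) to WT at 2 months (15.01). In Fos, Fosb, Junb, Jund and Ier2 no neighbouring means differ by more than the spread.

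Libraries of the same group vary in these genes, and they vary together. The standard deviation within groups was largest in Fosb (0.56, above 83.5% of genes), Fos (0.48, above 79.4%) and Atf3 (0.47, above 79.0%). It was smallest in Jund (0.22, above 47.9%) and Egr2 (0.24, above 52.1%). At 6 months the mean of the members is low in replicates 1 and 2 and high in 3 and 4 in both genotypes. The mean deviation of the members there was -0.41, -0.49, 0.39 and 0.51 in WT and -0.22, -0.20, 0.25 and 0.17 in rTg4510. Not every member follows that mean. In rTg4510 replicate 4 of 6 months deviates by -0.052 for Egr1, -0.37 for Egr2 and -0.30 for Egr3. Replicate 2 of that group deviates by 0.03, 0.18 and 0.063 for the same genes. At 2 months replicate 1 is the highest library of both genotypes.

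All 45 pairs of members correlate with a positive sign across the 28 libraries once group means are removed. Here r runs from 0.308 to 0.964 with a median of 0.739, and 41 pairs have FDR under 0.05 by r and 44 by rank. Without the 2 libraries farthest from the median in the first-listed gene of each pair all 45 stay positive. Libraries extreme in the second gene alone are not removed by this. With all 32 libraries 23 pairs pass and 9 turn negative, most strongly Jund with Egr2 (-0.686). Replicate number as a block leaves 14 pairs of libraries, and 14 of the 45 pairs of genes pass there. Which of handling, batch or biology the libraries share was not tested. Fos and Atf3 have the highest r, 0.964 (permutation p 1e-05, the smallest the permutations can give, FDR 5e-05). By rank rho is 0.951 (p 1e-05, FDR 3.46e-05), and r is 0.949 without the 2 farthest libraries. By rank Fos is closer to Junb (rho 0.971) and Ier2 (rho 0.958), and without the 2 farthest libraries to Junb (r 0.955). Fos and Fosb have r 0.938 (p 1e-05, FDR 5e-05), rho 0.940 (p 1e-05, FDR 3.46e-05) and 0.912 without the 2 farthest. Fos and Egr3 are looser, with r 0.485 (p 0.00594, FDR 0.00891), rho 0.540 (p 0.00329, FDR 0.00478) and 0.524 without the 2 farthest. For Egr2 and Egr3 r is 0.737 (p 2e-05, FDR 6.92e-05), rho 0.679 (p 0.00074, FDR 0.00159) and 0.724 without the 2 farthest. Within the AP-1 subunits all 10 pairs pass, with r from 0.790 to 0.958. Between AP-1 subunits and Egr genes 12 of 15 pass, with r from 0.308 to 0.743. The 4 pairs that do not pass by r are Jun with Egr2, Jun with Egr3, Jund with Egr3 and Egr1 with Egr2.

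**Figure D3:**
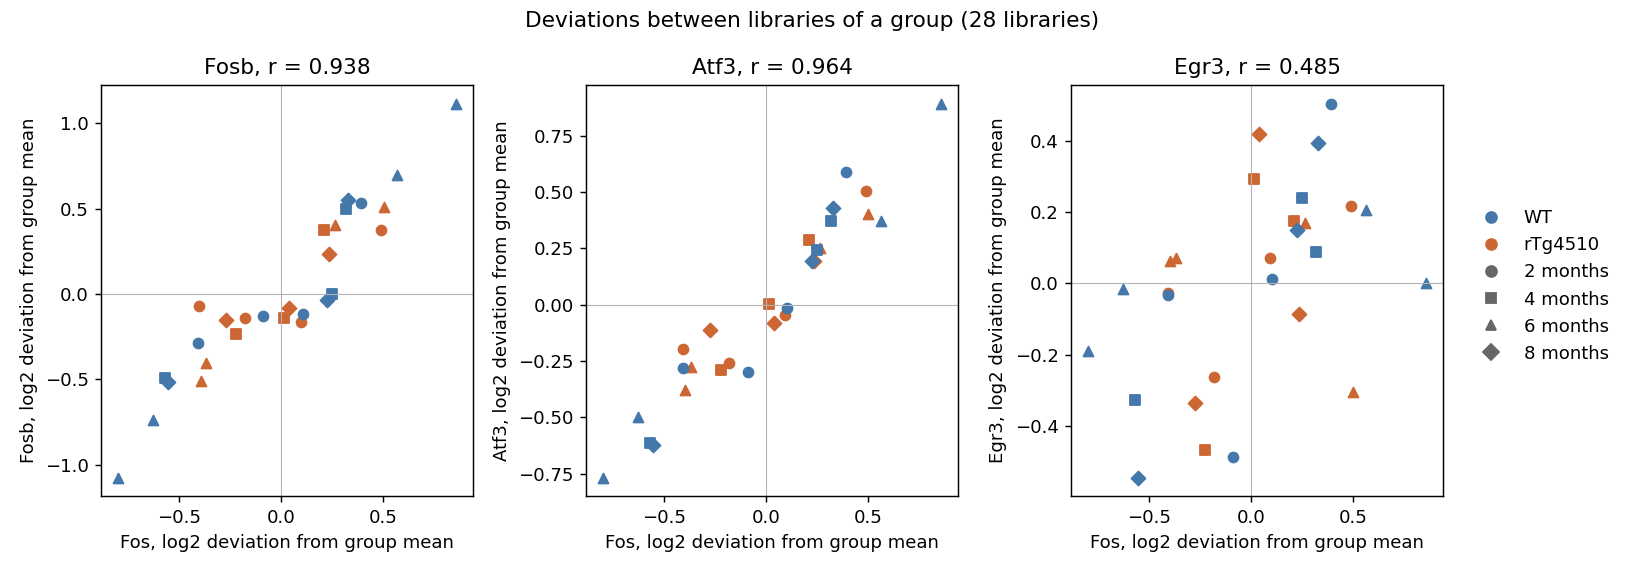
Deviation from the group mean of Fosb, Atf3 and Egr3 against that of Fos in the 28 kept libraries.

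The genes whose deviations follow the mean of the members most closely, among 9285 genes above the median signal, are Klf6, Dusp1, Rgs1, Klf4, Zfp36, Ier3, Snora64, Zfand5, Gm7993 and Adamts1. Their r with that mean runs from 0.925 to 0.953, while the median gene has -0.0823. The r is used for ranking and carries no p. Between genotypes Rgs1 rose at 4, 6 and 8 months (1.52, 1.77 and 1.53) and Zfp36 at 6 months (0.61, FDR 0.00919). The other 8 were not called at any age. Gm7993 is a pseudogene, and its reads may come from its parent gene.

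Genes upstream of the members are the kinases and nuclear factors that switch them on. Of 25 such genes 0, 1, 2 and 2 rose at 2, 4, 6 and 8 months, which is near the shares of all genes that rose (1.58%, 9.47%, 11.3% and 10.5%). At each age 0 of the 25 fell, beside 0.403%, 4.33%, 8.54% and 5.37% of all genes. Their medians were 0.03, -0.01, -0.01 and -0.01, close to the medians of all genes given above. Mapkapk2, a kinase under p38, rose by 0.89 at 8 months (FDR 6e-07). Map2k3, which activates p38, rose by 0.73 at 8 months (FDR 0.000113), and Mapk3, the kinase ERK1, rose by 0.63 at 6 months (FDR 4.88e-08). At 2 months limma called 0 of the 25.

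Among other immediate early genes those that passed the test mostly rose. Of 31 with values 3, 5, 8 and 12 rose at 2, 4, 6 and 8 months, beside 1.58%, 9.47%, 11.3% and 10.5% of all genes. In the same order 0, 2, 1 and 1 fell, beside 0.403%, 4.33%, 8.54% and 5.37% of all genes. The rest were not called, and without rTg4510 replicate 1 of 2 months the 2 month count was 1. Averaged over ages 9 rose and 1 fell, beside 9.51% and 7.03% of all genes. Their medians were 0.31, 0.01, 0.44 and 0.45, beside 0.01, -0.04, -0.04 and -0.01 for all genes. Gadd45b, a growth arrest gene, rose by 3.37 at 8 months (FDR 2.61e-06). Npas4, which encodes an activity-dependent factor, rose by 2.95 at 4 months (FDR 1.3e-06). Nr4a1, which encodes an orphan nuclear receptor, rose at all 4 ages, most at 6 months (2.25, FDR 7.29e-08). Nr4a3, its relative, rose by 1.68 at 8 months (FDR 0.000207), and Ier5l, an early response gene, by 1.65 (FDR 0.0367). Ier5, an early response gene as well, fell by 0.91 at 8 months (FDR 0.00106). Zfp36l2, which encodes a protein that destabilizes mRNA, fell by 0.76 at 4 months (FDR 0.000779). Npas4, Ier5l and Nr4a3 have low mean log2 signals (3.19, 3.47 and 3.87), below the library median of 5.63.

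Partners of AP-1, leucine zipper factors other than the members, passed about as often as all genes. Of 18 genes 0, 0, 2 and 3 rose at 2, 4, 6 and 8 months, beside 1.58%, 9.47%, 11.3% and 10.5% of all genes. In the same order 0, 1, 1 and 1 fell, beside 0.403%, 4.33%, 8.54% and 5.37% of all genes. The list had medians of 0.15, -0.07, 0.12 and 0.24 beside those of all genes. Averaged over ages 1 rose and 1 fell, beside 9.51% and 7.03% of all genes. Leaving out a library moved the count of called partners by at most 2 at any age. Fosl1, a Fos relative, rose by 2.14 at 8 months (FDR 0.00834), and Maff, a small Maf protein, by 1.71 (FDR 0.00428). The mean log2 signal of Fosl1 is low (3.51), below the library median of 5.63. Cebpb, a zipper factor of myeloid cells, rose by 0.63 at 6 months (FDR 0.0137), and Batf, a partner of Jun proteins, rose by 0.63 at 8 months (FDR 0.0435). Maf, a large Maf factor, fell by 0.92 at 6 months (FDR 1.26e-06).

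Genes that limit the response include phosphatases of the MAP kinases and the NAB proteins that bind and repress Egr factors. Of 18 such genes 1, 2, 2 and 3 rose at 2, 4, 6 and 8 months, beside 1.58%, 9.47%, 11.3% and 10.5% of all genes, and 0, 2, 1 and 1 fell, beside 0.403%, 4.33%, 8.54% and 5.37%. At 4 and 6 months the count that rose is about the share of all genes, and leaving out a library moved the genes called there from 4 to between 2 and 5 and from 3 to up to 5. The list had medians of -0.01, 0.09, 0.01 and 0.16. Averaged over ages 4 rose and 3 fell, beside 9.51% and 7.03% of all genes. Nab2 rose at all 4 ages, as Egr2 and Egr3 did, most at 4 months (1.46, FDR 4.95e-07). Nab1, its relative, rose by 0.59 at 8 months (FDR 0.00131). Dusp2, a phosphatase, rose by 1.70 at 8 months (FDR 0.00544), and Dusp7, another, fell by 0.95 at 6 months (FDR 9.01e-06). The mean log2 signal of Dusp2 is low (4.28), below the library median of 5.63. Spry2, an inhibitor of receptor signalling, fell by 1.77 at 4 months (FDR 0.0128).

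Genes known to respond to the acute isolation of microglia form a list of 17. Of these 6, 10, 11 and 12 rose at 2, 4, 6 and 8 months, larger shares than the 1.58%, 9.47%, 11.3% and 10.5% of all genes. In the same order 0, 2, 3 and 3 fell, beside 0.403%, 4.33%, 8.54% and 5.37% of all genes. At 4, 6 and 8 months those that fell are larger shares too, but only by few genes. Whether the list exceeds the shares of all genes was not tested in either direction. Without WT replicate 1 of 2 months 10 of the 17 were called at 2 months. The medians were 0.85, 1.09, 1.69 and 1.44, above those of all genes. Averaged over ages 11 rose and 3 fell, beside 9.51% and 7.03% of all genes. The summed level was 14.97, 14.95, 14.78 and 14.87 in WT and 15.21, 15.44, 15.40 and 15.32 in rTg4510. Cd83, a surface protein, rose by 2.98 at 6 months (FDR 9.42e-09). The chemokines Ccl3 and Ccl4 rose by 2.61 and 2.51 at 4 months. The cytokine Il1b rose by 2.41 at 6 months, and the cytokine Tnf by 2.29 at 8 months. The histone genes H2bc4, H2ac18 and H1f2 fell at 8 months (-1.17, -0.99 and -0.92). Over the libraries, with group means removed, the list's level has r 0.933 with the mean of the members, which is a description without a test. The same r is 0.916 for the other immediate early genes and 0.753 for the genes that limit the response. For the partners of AP-1 it is 0.598, and for the genes upstream -0.080. Both genotypes were isolated in the same manner, and the part of isolation in the genotype differences was not tested.

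Heat shock genes also answer to handling. Of 12 genes 1 rose at each age, beside 1.58%, 9.47%, 11.3% and 10.5% of all genes, and 0, 5, 4 and 1 fell at 2, 4, 6 and 8 months, beside 0.403%, 4.33%, 8.54% and 5.37% of all genes. With a library left out, 0 to 1 of the heat shock genes were called at 2 months. The list had medians of -0.0018, -0.46, -0.31 and -0.27. Averaged over ages 1 rose and 3 fell, beside 9.51% and 7.03% of all genes. Hspe1, a mitochondrial chaperone, rose by 1.26 at 6 months (FDR 7.68e-11). The inducible chaperones Hspa1b and Hspa1a fell at 4 months (-2.23, FDR 0.00124, and -1.99, FDR 0.00236). At the same age the chaperone genes Hsph1, Dnajb1 and Hspa8 fell (-0.99, -0.90 and -0.62). The r of the list's level with the mean of the members is 0.629.

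Cell type markers were counted in the same comparisons, and their part in the result was not tested. Single markers are given at the age of their largest difference. The shares of all genes that fell at 2, 4, 6 and 8 months are 0.403%, 4.33%, 8.54% and 5.37%, and those that rose 1.58%, 9.47%, 11.3% and 10.5%. Averaged over ages 7.03% of all genes fell and 9.51% rose. Of 10 microglia markers 0 rose and 1, 2, 3 and 3 fell (0 to 1 called at 2 months and 3 to 5 at 6 and at 8 months with a library left out), with medians of -0.19, -0.32, -0.52 and -0.53. Averaged over ages 2 of the 10 fell. The largest differences were those of Sall1 (-0.86), Fcrls (-0.79), Tmem119 (-0.78) and Itgam (-0.62). Of 8 neutrophil markers 0 rose and 0, 0, 7 and 5 fell (0 to 2 called at 4 months and 2 to 6 at 8 months with a library left out), with a summed level from 7.41 to 10.37 and Ngp the most abundant (mean 7.27). The neutrophil medians were 0.05, -1.02, -2.04 and -1.60, and averaged over ages 7 fell. Mpo, Elane, S100a8, Camp and S100a9 had the largest falls (-2.42, -2.22, -2.15, -2.12 and -2.02). Of these Mpo, Elane and Camp have mean log2 signals of 3.35, 2.84 and 5.35, below the library median of 5.63. Within groups the level of microglia markers has r -0.380 with the mean of the members, neutrophil markers 0.328, border macrophage and monocyte markers 0.298 and astrocyte markers -0.253. The same r is -0.196 for neuron and for endothelial and mural markers, 0.191 for lymphocyte markers and 0.0696 for oligodendrocyte markers.

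Neuron markers have values for 3 of 8 genes, with a summed level from 4.89 to 6.94 and Camk2a the most abundant (mean 4.79), and 1 of 3, Snap25, fell at 6 months (-1.42). Neuron medians were -0.46, -0.74, -0.94 and -1.13 at 2, 4, 6 and 8 months. Of 6 astrocyte markers 0, 0, 1 and 1 rose and 0, 0, 2 and 3 fell at 2, 4, 6 and 8 months. Their summed level runs from 9.49 to 11.56, and Slc1a3 is the most abundant (mean 9.57). Astrocyte medians were -0.084, -0.31, -0.54 and -0.82. Gfap rose by 1.80, while Slc1a2, Aqp4 and Slc1a3 fell (-2.14, -1.38 and -0.71). Gfap and Slc1a2 have low mean log2 signals (4.10 and 4.04). Of 6 oligodendrocyte markers, with a summed level from 6.43 to 10.67, limma called 0 at every age, while the medians were 0.0089, -0.64, -0.92 and -0.78. Of 8 endothelial and mural markers 0, 1, 1 and 1 rose and 0, 1, 2 and 2 fell. That list sums to 7.27 to 9.17, and Cldn5 is its most abundant gene (mean 6.48), with medians of -0.0083, -0.61, -0.71 and -0.77. Flt1 rose by 1.89, and Pecam1, Rgs5 and Cdh5 fell (-2.12, -1.495 and -0.86). Their mean log2 signals are 5.20, 4.82, 5.02 and 4.23, all below the library median of 5.63. Of 8 border macrophage and monocyte markers 0 rose and 0, 1, 2 and 0 fell, with a summed level from 10.09 to 11.22 and Mrc1 the most abundant (mean 9.44), and medians were -0.26, -0.42, -0.32 and -0.16. Ccr2, Ly6c2 and Lyve1 fell (-1.05, -0.86 and -0.84). Lymphocyte markers have values for 6 of 7 genes, of which 0 rose and 0, 2, 1 and 0 fell, with a summed level from 5.63 to 7.54 and Cd79b the most abundant (mean 4.66). Cd79a, Nkg7 and Cd79b fell (-1.64, -1.62 and -0.77), and the lymphocyte medians were -0.15, -0.75, -0.61 and -0.59. Leaving out a library moved the number of called genes of these 6 cell types by at most 2 at any age.

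Promoter sequence was read for 7 of the 10 members, from 250 bases before to 50 bases after the transcription start. Egr1, Egr3 and Ier2 have no entry in the promoter collection used. On both strands 6 motifs were counted, and a match is a description of sequence and no evidence of binding. Egr2 has 5 of the 11 windows of the members, some of them overlapping, and a member is named where any of its windows has a match, so the shares, which are per window, are no measure for a gene with several. The CArG box, bound by serum response factor, is in 1.63% of all 32851 windows and among the members in Egr2, in 4 of its 5 windows. The CRE letters TGACGTCA are in 1.79% of windows and in no member, and TGACGT, which they contain, in 7.51% of windows and in Fos, Atf3 and 3 of the 5 windows of Egr2. The AP-1 letters TGANTCA are in 7.81% of windows and in no member. The Egr site GCGNGGGCG is in 5.55% of windows and in Fosb. The NF-kappaB site is in 8.46% of windows and in Fos, Fosb and 1 of the 5 windows of Egr2. Stretches of the 3 members with TGACGT are printed, since Egr2 and Atf3 rose and Fos is shown beside them as a member that did not pass. They are from mouse build GRCm38.p6, credited to RefSeq, and capitals mark matches to the CArG box and to TGACGT, which reads ACGTCA on the other strand. The stretch of Fos is chr12:85473790-85473889 on the plus strand, that of Atf3 chr1:191183334-191183433 on the minus strand, and that of Egr2 chr10:67537795-67537824 on the plus strand.
Fos: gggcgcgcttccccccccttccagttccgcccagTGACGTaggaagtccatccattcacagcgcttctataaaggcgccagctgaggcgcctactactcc
Atf3: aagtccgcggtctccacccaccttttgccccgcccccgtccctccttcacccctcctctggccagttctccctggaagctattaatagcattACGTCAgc
Egr2: gtCCATATATGGgcagcgACGTCAcgggta

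The Egr2 locus overlaps the gene Gm32255, and whether counting was strand-specific is not given in the sources used here. Reads of the 2 genes could therefore be mixed in the Egr2 signal.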

How the data were processed

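Gene signals of 32 microglia libraries were used, 4 per genotype and age. Before the values were deposited, the authors summed exon reads per library, dropped exons with few reads, combined the exons of a gene by robust regression, and gave the result as a log2 signal scaled to a common median. Each library has a median of 5.63. Reads were placed on GRCm38 per the labels, and the aligner is not given in the sources used here. Replicate 3 of both genotypes at 4 months and replicate 4 of both at 8 months, which failed the authors' quality checks, were left out, which leaves 28 libraries. Entrez numbers were turned into symbols with RefSeq, for 17828 of 18588 genes (95.9%). The authors give 1 approximate number of reads for all samples, and totals of single libraries were not analysed here, so precision is read from the spread of libraries.

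The table was computed on as it stands, with limma 3.58.1 in R 4.3.3. A linear model with 8 group means and unmoderated variance (20 residual degrees of freedom) gave 17 contrasts, and p was adjusted by Benjamini and Hochberg over all genes within a contrast. A call needs FDR under 0.05 and more than 1.5 fold, and intervals are at 95%. On simulated data for 18588 genes, 61% of genes changed by a log2 difference of 1 between genotypes were called and 89.5% of those changed by 2, as a mean over ages. The simulation changed a small share of genes at 1 age at a time. Its percentages need not hold for the real comparisons, where more genes differ. Correlations of deviations from group means used 100000 permutations within groups (numpy 2.4.6, scipy 1.17.1, pandas 2.3.3, Python 3.11.15), and figures were drawn with matplotlib 3.10.9.

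Named are the 10 members and, from each other list, up to 5 called genes per direction with the largest difference at any age. The most abundant gene of each marker list except that of oligodendrocytes and the 10 nearest genes above the median signal are named as well. Members and lists were chosen with earlier results of these data known. The alternatives were all 32 libraries, only the groups of an age, moderated variance, quantile normalization, centring on genes above the median, dropping genes below it, a replicate block, each library left out, and no fold threshold.

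Whether equal replicate numbers pair libraries was read from their deviations from group means. Same-numbered libraries of the 2 genotypes had r from 0.131 to 0.153 at 6 months and from 0.150 to 0.291 at 8 months. Numbers are therefore taken as pairing libraries there, from the values and not from the labels.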

Additional observations from a re-analysis of the deposited data

Results flagged for a closer look

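Each value here comes from a library that was not kept and lies outside the range of all kept libraries of the same gene. Junb reads 14.90 in rTg4510 replicate 3 of 4 months, beside a highest kept value of 14.001. Jund reads 15.93 in the same library, beside a highest kept value of 13.44. In rTg4510 replicate 4 of 8 months Jund reads 13.47. In WT replicate 3 of 4 months it reads 14.32. In WT replicate 4 of 8 months it reads 13.77. Atf3 reads 12.14 in rTg4510 replicate 3 of 4 months, beside a highest kept value of 12.10. Ier2 reads 13.77 there, beside a highest kept value of 13.03. On the low side, Egr2 reads 8.35 in the same library, beside a lowest kept value of 8.55, and Egr1 reads 13.87, beside a lowest kept value of 14.28.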

How the results depend on the processing

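Between genotypes Egr2 and Atf3 kept their direction at every age under every setting, and Egr3 under every setting that gives it a value. Of the member fold changes under other settings 21 of 354 turned in sign, and with a library left out 15 of 1512. Values that kept their sign could still move in size by more than 1.5 times, as the ranges given below show. Counts moved by up to 1.5 times, such as 2 to 3, are taken here as kept. By that rule 103 of 115 counts of called members were kept, and 470 of 476 with a library left out. In the other lists 383 of 476 counts were kept, and 1856 of 1960 with a library left out. Among the kept counts, members called moved from 2 to 3 with the replicate block at 2, 4 and 8 months and with quantile normalization at 4 and 8 months, from 3 to 4 with quantile normalization in rTg4510 from 2 to 8 months, and from 3 to 2 at 6 months with only the groups of that age. With genes above the median signal alone they moved from 3 to 2 at 6 months, averaged over ages and in rTg4510 from 2 to 8 months. Results on pairs were kept in 40 of 92 cases. Where values moved, the cause was not tested, except that fewer libraries or genes enter some settings. Read totals of single libraries were not analysed here, so what depth limits in low signals such as Egr3 was not tested.

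With all 32 libraries the members called were 1 at 2 months and 1 at 8 months, 2 in rTg4510 from 2 to 4 months and 0 from 2 to 8 months. Egr2 had 1.14 at 2 months (FDR 0.0902), Egr3 0.69 at 4 months (FDR 0.109) and 0.83 at 8 months (FDR 0.0597), and Atf3 1.01 at 4 months (FDR 0.026). Turned in sign were Jund 0.0705 and Fosb 0.053 at 4 months, Egr1 0.058 at 8 months and Jund 0.20 in rTg4510 from 2 to 4 months. From 2 to 8 months in rTg4510, Jun had -0.57, Jund -0.47 and Egr3 -0.63. Of the pairs 23 passed, and turned in sign were Jun with Egr2 (-0.269) and Egr3 (-0.0902), Junb with Egr2 (-0.427) and Egr3 (-0.163), Jund with Egr1 (-0.243), Egr2 (-0.686) and Egr3 (-0.328), and Ier2 with Egr2 (-0.215) and Egr3 (-0.0351).

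With only the groups of an age, the members called were 1 at 4 months and 0 at 8 months. Egr3 had 1.10 at 4 months (FDR 0.101) and 0.86 at 8 months (FDR 0.223), Atf3 1.08 at 6 months (FDR 0.116) and Egr2 0.90 at 8 months (FDR 0.116). Dropping genes below the median signal removes Egr3, which gets no value, and leaves 1 member called at 2, 4 and 8 months each. Without a fold threshold 6 members were called averaged over ages.

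Quantile normalization turned the sign of Jund at 2 months (-0.070), of Fos at 4, 6 and 8 months and averaged (-0.44, -0.084, -0.11, -0.14), of Junb (-0.24, -0.15, -0.18, -0.13) and Ier2 (-0.21, -0.0081, -0.33, -0.092) in the same places, and of Egr1 at 6 months (-0.30) and averaged (-0.22). It made Jund larger at 4, 6 and 8 months and averaged (-0.92, -0.85, -0.77, -0.65). Atf3 at 6 months (0.61) and averaged (0.51) and Jun from 2 to 8 months in rTg4510 (-0.20) became smaller. It gave 1 member, Jund, for the change of the genotype difference from 2 to 4 and from 2 to 8 months. Centring on genes above the median turned Jund at 2 months (-0.011) and Fos at 4 months (-0.047).

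At 2 months same-numbered libraries had r from 0.0649 to 0.167 and at 4 months from -0.0999 to 0.124, so not every pair was over 0.1, though 3 of 4 were at 2 months, and numbers are not taken as pairing there. With the replicate block Atf3 was called at 2, 4 and 8 months (0.85, FDR 0.0202; 0.74, FDR 0.0258; 0.85, FDR 0.0124), and 14 pairs of members passed. The block changed no other call of a member.

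With each library left out in turn, the members called ran from 2 to 4 at 4 months, from 2 to 4 at 6 months and from 1 to 2 at 8 months, and in rTg4510 from 0 to 1 for 2 to 4 months and from 1 to 3 for 2 to 8 months. At 2 months Jund ran from -0.077 to 0.11. Fos ran there from 0.13 to 0.42, Fosb from 0.12 to 0.42, Jun from -0.16 to -0.044 and Junb from 0.14 to 0.30. At 4 months Fos ran from -0.27 to 0.17, Fosb from -0.26 to 0.24, Jun from -0.70 to -0.45, Junb from -0.083 to 0.17, Jund from -0.59 to -0.34 and Egr1 from -0.20 to 0.0048. Atf3 ran there from 0.44 to 0.93 and Ier2 from 0.06 to 0.48. At 6 months Fosb ran from -0.0335 to 0.70, Egr1 from -0.091 to 0.25, Atf3 from 0.83 to 1.38 and Ier2 from 0.33 to 0.80. Fos ran there from 0.20 to 0.75, Jun from -0.54 to -0.22, Junb from 0.14 to 0.46 and Jund from -0.34 to -0.12. At 8 months Egr1 ran from -0.18 to 0.12, Egr3 from 0.59 to 1.06 and Ier2 from -0.076 to 0.38. Fos ran there from 0.11 to 0.55, Fosb from 0.42 to 0.95 and Junb from 0.067 to 0.38. Jund ran from -0.29 to -0.097 and Atf3 from 0.54 to 1.06 at this age. Averaged over ages Egr1 ran from 0.030 to 0.11. In rTg4510 Jund ran from -0.76 to -0.57 for 2 to 4 months, and for 2 to 8 months Jun from -0.77 to -0.57 and Egr3 from -0.97 to -0.59.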
